A study of Mus musculus with 11 samples.

Results

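miRNAs known from cells of the blood lineage were followed in mouse cortex after stroke. The set was chosen by name and has 5 members of the 1907 mature miRNA names counted: mmu-miR-223-3p, mmu-miR-223-5p, mmu-miR-142a-3p, mmu-miR-142a-5p and mmu-miR-150-5p. All 5 were present in the count tables, and 4 passed a filter on low counts, with mmu-miR-223-5p left out by it. Small RNA was sequenced from male Balb/cOlaHsd mice, whose labels give an age of 3 months, at 3 days after surgery. In 5 mice the left middle cerebral artery was closed permanently by thermocoagulation (pMCAO), and in 6 sham mice the artery was exposed and lifted but not occluded. The labels name no engineered allele and no agent in either group, although the deposited tables of both carry the word vehicle in their names, and per the study's methods the brains were perfused before dissection. The labels describe the sham tissue as cortex and the pMCAO tissue as peri-ischemic cortex, which surrounds the ischemic core, whereas the study's methods take peri-ischemic cortex in both groups. If the regions did differ, region and occlusion cannot be told apart here.

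A miRNA hairpin is cut into a duplex of its 5p and 3p arms, and usually one arm is kept by Argonaute, where bases 2 to 8, the seed, pair with target mRNAs. miR-223 is abundant in neutrophils and monocytes and restrains granulocyte activation. Both arms of miR-142a are expressed throughout the white blood cells, microglia included, and miR-150-5p is known from mature B and T lymphocytes, where it restrains the transcription factor Myb. After an ischemic stroke, microglia are activated and neutrophils, monocytes and later lymphocytes enter the tissue. Bulk tissue was sequenced here, so more cells of a type and more of a miRNA per cell cannot be told apart.

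Mature sequences were found in the RefSeq table of GRCm38.p6 for 4 of the 5 members and are shown because the seed and the arm distinguish the members that follow. They are written 5′ to 3′ with the seed in capitals.
miR-223-3p: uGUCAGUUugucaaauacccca
miR-223-5p: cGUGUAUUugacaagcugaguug
miR-142a-3p: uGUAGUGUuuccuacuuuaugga
miR-142a-5p: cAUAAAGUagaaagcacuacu
The 4 seeds differ from each other, and 0 other mature entries of that table share any of them, so no seed family joins these counts. miR-150-5p is the remaining member.

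The hairpins lie at 3 separate loci of GRCm38, the assembly also called mm10, all on the plus strand. Mir223 (ENSMUSG00000076066.1) occupies chromosome X from 96242817 to 96242926, and all of its 110 bases are exonic in F630028O10Rik, a noncoding gene on the same strand. Its 5p arm runs from 96242842 to 96242864 and its 3p arm from 96242884 to 96242905. Mir142 (ENSMUSG00000105196.1) occupies chromosome 11 from 87756864 to 87756927, in an intron of the long noncoding RNA gene Mir142hg, with the 5p arm from 87756867 to 87756887 and the 3p arm from 87756903 to 87756925. A second annotated hairpin, Mir142b, covers the same bases on the minus strand, and all 20 bases of its mature miR-142b are the reverse complement of bases in miR-142a-3p. miR-142b had 1 count in 1 sham library and 0 in the other 10, so the minus-strand entry drew almost none of the counts at this locus. Mir150 (ENSMUSG00000065495.1) occupies chromosome 7 from 45121757 to 45121821, outside all other annotated genes.

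Library totals ran from 1429037 to 2319810 counts in the sham and from 744877 to 1411620 in the pMCAO libraries, so every pMCAO library was shallower. Levels are given in CPM, that is, counts scaled to a common total of 1e6 with TMM factors, and the groups were compared over all miRNAs with the quasi-likelihood test of edgeR. With 0.05 as the limit for the adjusted p, 34 of 479 miRNAs were called (7.10%), 21 of these with higher levels in pMCAO (4.38%). Scaling by total counts alone, which shifted the median over all miRNAs from 0.00 to 0.18 on the log2 scale, gave 43 higher and 1 lower. Upper-quartile scaling gave 23 higher and 4 lower, and leaving out sham replicate 3 gave 16 calls. Among the 4 members tested, 3 were called and all 3 were higher, also in these 3 fits. The groups did not overlap for 36 of the 479 (7.52%), and for 2 of the 4 members tested, miR-223-3p and miR-142a-5p. A floor of 3 counts lay between 1.29 and 4.03 CPM, depending on the library. As a check for neural tissue, miR-124-3p, a defining neuronal miRNA, had the highest mean level of all names in both groups. A miRNA of neurons in general cannot check which brain region was taken.

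miR-223-3p, the kept arm of the granulocyte and monocyte miRNA, rose the most of the members tested. Its level in the sham libraries had a minimum of 129, a median of 209 and a maximum of 411 CPM. In the pMCAO libraries it was 427 CPM in replicate 1, 2754 in replicate 2, 1124 in replicate 3, 781 in replicate 4 and 1109 in replicate 5. The groups did not overlap, although replicate 1 of pMCAO exceeded the highest sham library by a factor of only 1.04. Means were 249 ± 123 CPM (SD, n = 6) and 1239 ± 893 CPM (SD, n = 5), a gain of 990 CPM. This was a log2 fold change of 2.31 with a standard error of 0.43 (edgeR quasi-likelihood, Benjamini-Hochberg adjusted p = 0.00544), which ranked 6 by log2 fold change and 9 by p-value among the 479. By mean level miR-223-3p moved from rank 181 of 1907 names in sham to rank 84 in pMCAO tissue. Its pMCAO libraries spanned a 6.44-fold range. Counting alone would give a coefficient of variation of 3.26% at these counts against 72.1% seen, so depth set little of that spread.

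The other arm, miR-223-5p, was close to absent. It had 1 count in sham replicates 1 and 4 and 0 in the other sham libraries, and 2, 6, 2, 0 and 4 counts in pMCAO replicates 1 to 5. Of all counts on the hairpin, miR-223-5p took 2 of 2504 in sham, or 0.0799% (95% exact binomial interval 0.00967 to 0.288%), and 14 of 6870 in pMCAO, or 0.204% (0.111 to 0.342%). The summed pMCAO rate was 11.6 times the sham rate, with an exact counting interval of 2.67 to 106. An exact permutation test on log2(CPM + 1) over all arrangements of the libraries gave a difference of 1.35 and p = 0.0346, two-sided. That result fell short of 0.05 in 8 of the 11 fits that left out one library, and kept it only without sham replicate 1, sham replicate 4 or pMCAO replicate 4. edgeR without a filter gave an adjusted p of 0.0540 in its quasi-likelihood test. Intervals here cover counting error only, and reads carried no molecular identifiers.

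**Figure D1:**
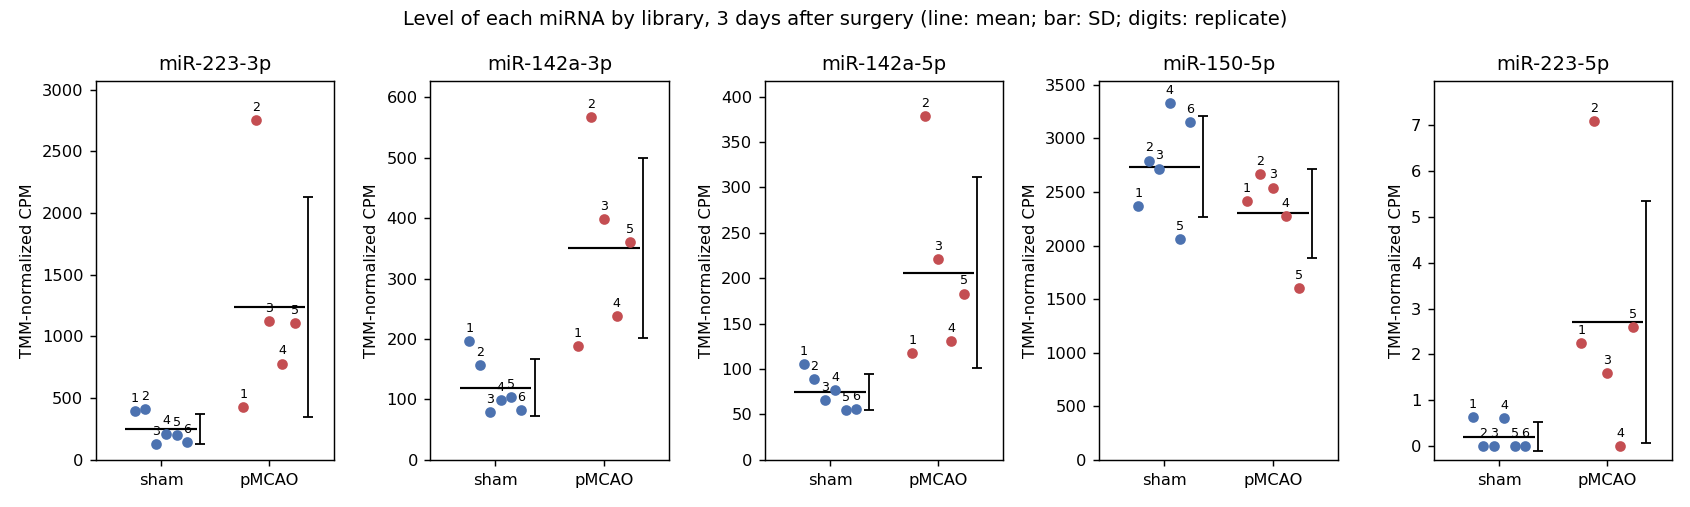
TMM-normalized CPM of the 5 members in each library (1 point per mouse, digits are replicate numbers), with the group mean as a line and the SD as a bar, 6 sham and 5 pMCAO mice, 1 linear axis per miRNA. miR-223-3p and both miR-142a arms are higher in pMCAO with replicate 2 on top, miR-150-5p overlaps between the groups, and miR-223-5p stays at or under 7.09 CPM.

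Both arms of miR-142a, the miRNA shared by white blood cells and microglia, rose together. miR-142a-3p lay in the sham libraries between 79.98 and 197 CPM with a median of 102. The pMCAO libraries held 188, 568, 399, 238 and 361 CPM in replicates 1 to 5. The groups overlapped at a single point, since pMCAO replicate 1 was below sham replicate 1. The other 4 pMCAO libraries were above all sham libraries. With means of 120 ± 47.0 CPM (SD, n = 6) and 351 ± 149 CPM (SD, n = 5), miR-142a-3p had a log2 fold change of 1.55 and a standard error of 0.29 (edgeR adjusted p = 0.00569).

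For miR-142a-5p the sham values had a minimum of 55.4, a median of 71.3 and a maximum of 105 CPM. In pMCAO replicates 1 to 5 they were 118, 378, 221, 131 and 183 CPM, all above the sham maximum, with replicate 1 ahead of it by a factor of 1.12. The means were 74.8 ± 19.7 CPM (SD, n = 6) and 206 ± 105 CPM (SD, n = 5), giving a log2 fold change of 1.46 and a standard error of 0.28 (edgeR adjusted p = 0.00569). Unlike miR-223, the hairpin left both arms in the counts. miR-142a-5p took 737 of 1921 miR-142a counts in sham, or 38.4% (95% exact binomial interval 36.2 to 40.6%), and 1156 of 3173 in pMCAO, or 36.4% (34.8 to 38.1%). These intervals cover the counting error of the summed counts and not the spread between mice. Counting error at these depths was 7.68% for miR-142a-3p and 9.46% for miR-142a-5p in sham, against coefficients of variation of 39.2% and 26.4% between the libraries.

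miR-150-5p, the member known from lymphocytes, did not pass the test, and its level stood apart from the others. Which cells held it was not tested, so its change is not read as one of lymphocytes. The sham libraries ran from 2058 to 3328 CPM, median 2756. The pMCAO libraries held 2415, 2664, 2541, 2276 and 1602 CPM in replicates 1 to 5. Here 4 of the pMCAO libraries fell inside the sham range, and replicate 5 was the lowest of all 11. Means were 2735 ± 474 CPM (SD, n = 6) and 2300 ± 416 CPM (SD, n = 5). Its log2 fold change of -0.25 had a standard error of 0.15 (edgeR adjusted p = 0.370, unadjusted p = 0.123). It was below 0 under every scaling run, the nearest to 0 being -0.08 with total counts alone, a scaling that moved the median of all miRNAs to 0.18. Its low-count other arm, miR-150-3p, had between 1 and 11 counts in each library and was not tested. By mean level miR-150-5p ranked 54 of 1907 names in sham, far above miR-223-3p and the pan-leukocyte miR-142a-3p at rank 234. Counting error was 1.54% in sham and 1.98% in pMCAO, so depth hardly limited this comparison.

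Which cells of the cortex held the counts of any member was not tested. Without miR-150-5p, the other members summed to between 275 and 696 CPM in sham and between 736 and 3707 CPM in pMCAO libraries. With it, the sums ran from 2422 to 3719 and from 3151 to 6370 CPM, so that in sham tissue most counts of the set belonged to miR-150-5p.

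Ratios of counts within a library need no scaling between libraries, and they ask whether a pair of members changed by the same factor. 5 ratios were compared by exact permutation tests, two-sided, on log2 of the counts plus 0.5, with p adjusted over the 5 ratios. Ligation and amplification differ between sequences, so the ratio itself is not a molar ratio and only its change is read. The interval given with each is the set of shifts that the same test did not refuse at 0.05.

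miR-223-3p gained on miR-142a-3p. There were between 1.61 and 2.62 counts of miR-223-3p for each count of miR-142a-3p in sham, with a median of 1.99. pMCAO replicates 1 to 5 held 2.27, 4.85, 2.82, 3.27 and 3.07. Only pMCAO replicate 1 lay within the sham range. The geometric mean of the ratio rose 1.58-fold, a log2 difference of 0.66 (interval 0.21 to 1.11, exact permutation p = 0.00866, adjusted p = 0.0144), so miR-223-3p rose by the larger factor of these 2.

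Against miR-150-5p, both of these miRNAs gained. The ratio of miR-223-3p to miR-150-5p was between 0.0454 and 0.167 in sham with a median of 0.0801. It was 0.177, 1.03, 0.442, 0.343 and 0.693 in pMCAO replicates 1 to 5. The groups did not overlap, and only in pMCAO replicate 2 did miR-223-3p have as many counts as miR-150-5p. The rise was 5.43-fold, a log2 difference of 2.44 (interval 1.17 to 3.67, exact permutation p = 0.00433, which is the smallest p the test can give, adjusted p = 0.0144). For miR-142a-3p to miR-150-5p the sham ratios ran from 0.0261 to 0.0835, median 0.0389. In pMCAO replicates 1 to 5 they were 0.0780, 0.213, 0.157, 0.105 and 0.226. pMCAO replicate 1 fell below sham replicate 1 and the rest were above all sham libraries. This ratio rose 3.43-fold, a log2 difference of 1.78 (interval 0.86 to 2.76, exact permutation p = 0.00866, adjusted p = 0.0144).

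The arm ratios did not pass. miR-142a-3p to miR-142a-5p was between 1.22 and 1.87 in sham with a median of 1.59. In the pMCAO libraries it was 1.59, 1.499, 1.80, 1.82 and 1.97. The groups overlapped widely, with a log2 difference of 0.16 (exact permutation p = 0.277, adjusted p = 0.346). The interval of the change ran from 0.895-fold to 1.40-fold, and a change inside it was not detectable with these libraries. For miR-223-3p to miR-223-5p the log2 difference was -0.09 (interval -1.75 to 1.53, exact permutation p = 0.892, adjusted p = 0.892). Since miR-223-5p had at most 6 counts in a library, this ratio was set largely by the added 0.5 and changed sign with 1 in its place.

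**Figure D2:**
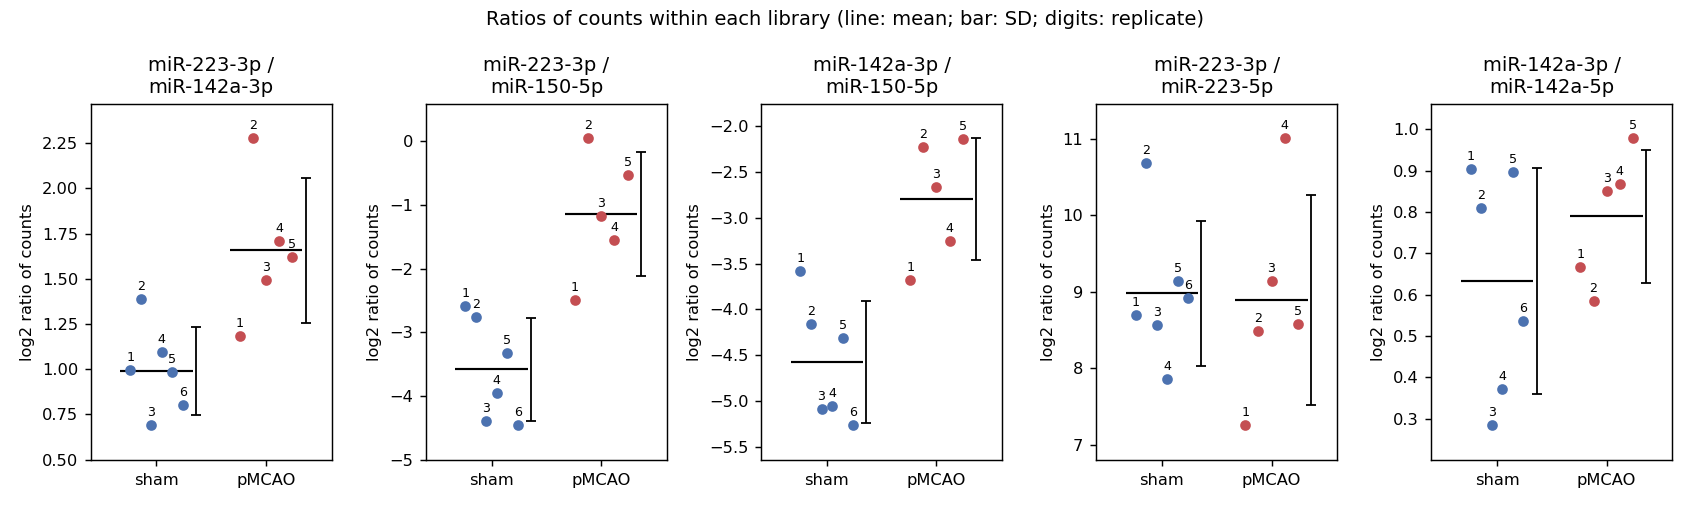
Log2 ratio of the counts of 2 members in each library (points, digits are replicate numbers; line, group mean; bar, SD), 6 sham and 5 pMCAO mice. The first 3 ratios are higher in pMCAO by 0.66, 2.44 and 1.78 on the log2 scale, and both arm ratios overlap between the groups.

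The 3 members called put the pMCAO libraries in the same order. From high to low, the pMCAO libraries ran as replicates 2, 3, 5, 4 and 1 for miR-223-3p and for each arm of miR-142a. miR-21a-5p, a miRNA induced in many injured tissues and in myeloid cells, put them in the same order. miR-155-5p and miR-146a-5p did not, with orders of 2, 3, 1, 5 and 4 and of 2, 3, 5, 1 and 4. miR-150-5p shared the top places, with replicate 2 ahead of replicate 3, but had replicate 5 at the bottom. In the sham group, replicates 1 and 2 were the highest pair for miR-223-3p and for both miR-142a arms, whereas for miR-150-5p replicate 4 was the highest and replicate 1 next to the lowest.

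Red blood cell miRNAs shared the sham order at its top and not the pMCAO order, which for miR-451a ran 3, 1, 5, 2 and 4. miR-451a, the most abundant miRNA of erythrocytes, stood at 5115 CPM in sham replicate 1 and between 42.7 and 252 CPM in the other 5 sham libraries, replicate 2 being the second highest. The pMCAO libraries held 1855, 1024, 4465, 620 and 1414 CPM in replicates 1 to 5. Over all libraries the log2 fold change of miR-451a was 0.96 with a standard error of 1.08 (edgeR adjusted p = 0.672). For miR-144-3p, from the same erythroid cluster, it was 1.17 (edgeR adjusted p = 0.537). Without sham replicate 1 the log2 fold changes were 3.85 for miR-451a and 3.61 for miR-144-3p. That library was singled out by its miR-451a level, so these 2 values are descriptive and no p-value is read from them. The summed erythrocyte list ran from 49.2 to 5375 CPM in sham and from 640 to 4735 CPM in pMCAO, with miR-486a-5p and miR-486b-5p at 4 counts or fewer in every library. Of its 5 members 2 were tested, miR-451a and miR-144-3p, and over all libraries 0 were called by edgeR or DESeq2, with 0 at an unadjusted edgeR p under 0.05. miR-486a-3p, the other arm of miR-486a, was not on the list and had means of 13.8 CPM in sham and 7.19 CPM in pMCAO. Its log2 fold change was -0.996 (edgeR adjusted p = 0.248). The size of the miR-451a and miR-144-3p differences thus depended on sham replicate 1, and their part in the rise of miR-223 and miR-142a was not tested.

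The libraries with the most miR-451a differed in the members. Sham replicate 1 and pMCAO replicate 3 had 5115 and 4465 CPM of miR-451a, with 394 and 1124 CPM of miR-223-3p and 197 and 399 CPM of miR-142a-3p. pMCAO replicate 1, at 1855 CPM of miR-451a, had 427 CPM of miR-223-3p and 188 CPM of miR-142a-3p, close to sham replicate 1. The highest miR-223-3p and miR-142a-3p levels belonged to pMCAO replicate 2, whose miR-451a was next to the lowest of its group. Sham replicates 1 and 2, however, were the highest sham libraries for miR-451a and for both of these members. The median of miR-451a was 157 CPM in sham and 1414 CPM in pMCAO. Whether miR-451a and the members were related was not tested. Without sham replicate 1 the fold changes were larger, at 2.50 for miR-223-3p, 1.76 for miR-142a-3p and 1.59 for miR-142a-5p on the log2 scale. Leaving out sham replicate 1, the highest sham library for both miR-142a arms and for miR-451a, makes overlap between the groups less likely. For miR-451a the highest sham library left was at 252 CPM and the lowest pMCAO library at 620 CPM. The 7.52% of all miRNAs without overlap refers to all 11 libraries. The share in this subset was not counted, so no separation of the groups is read from it. The remaining 5 sham libraries reached at most 157 CPM of miR-142a-3p, against 188 CPM or more in pMCAO.

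**Figure D3:**
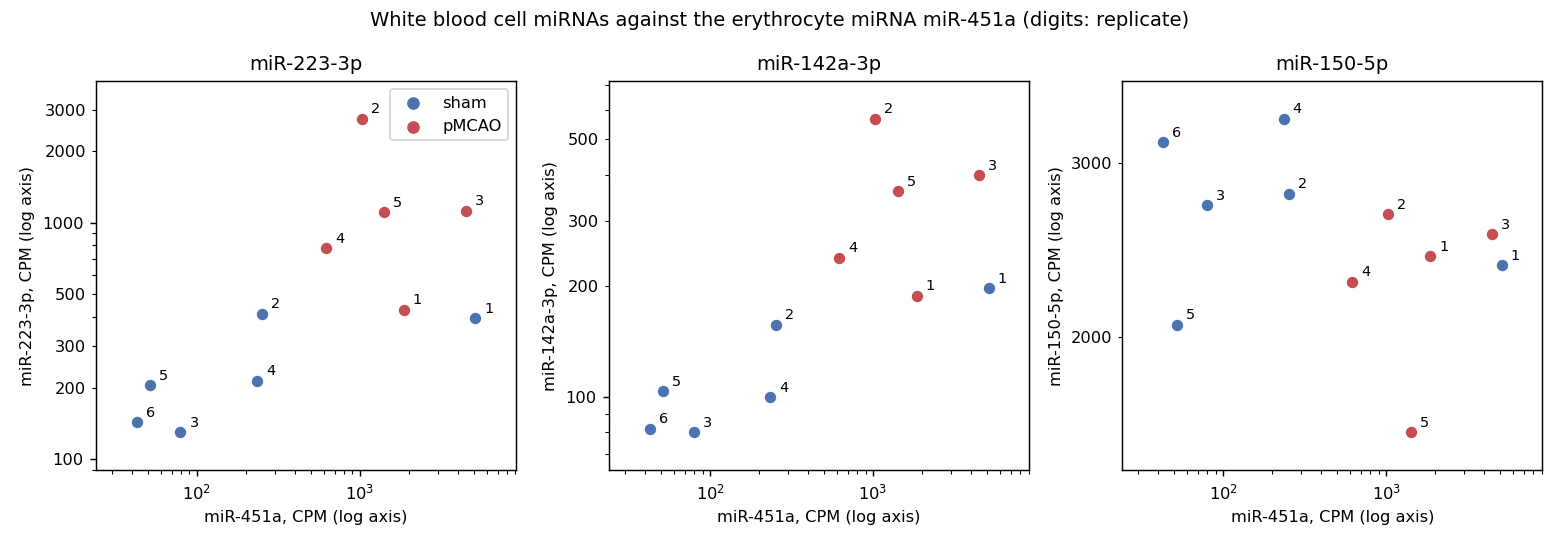
Level of miR-142a-3p, miR-150-5p and miR-223-3p against miR-451a, all in CPM on log axes, 1 point per library (blue sham, red pMCAO, digits are replicate numbers). Sham replicate 1 has the highest miR-451a, 5115 CPM, and pMCAO replicate 2 has the highest miR-223-3p, 2754 CPM, at 1024 CPM of miR-451a. Sham replicates 1 and 2 are the highest sham libraries for miR-451a, miR-142a-3p and miR-223-3p, and no relation was tested.

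Profiles of other miRNAs were compared with the members by the root mean square difference of log2 CPM over the 11 libraries, each miRNA centred on its own mean. For miR-223-3p the nearest outside the set were miR-21a-5p at 0.40, miR-214-3p at 0.45 and miR-21a-3p at 0.63, where the median over all tested miRNAs was 1.35. miR-142a-3p was the second nearest of all to it, at 0.44. The profile of miR-142a-3p was closest to its own other arm, miR-142a-5p, at 0.22, and then to miR-214-3p at 0.32, miR-21a-5p at 0.33 and miR-199a-3p at 0.38, against a median of 0.96. miR-214-3p and miR-199a-3p, known from fibroblasts and other mesenchymal cells, had means of 22.1 and 23.2 CPM in sham and of 71.95 and 49.3 CPM in pMCAO (edgeR adjusted p = 0.0296 and 0.0547).

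miR-150-5p had different neighbours. Its nearest profiles were miR-124-5p, an arm of the neuronal miR-124 hairpin, at 0.16, miR-532-3p at 0.16 and miR-205-5p at 0.16, with a median of 0.40 over all tested miRNAs. None of these 3 passed the test, with log2 fold changes of -0.29, -0.13 and -0.38 (adjusted p = 0.179, 0.770 and 0.248 from edgeR). miR-223-3p was far from it, at rank 470 by closeness, as was miR-142a-3p at rank 461. These distances describe 11 libraries that share scaling and group. For miR-223-3p and miR-142a-3p, nearness follows largely from the group difference. Most miRNAs were close to miR-150-5p, at a median of 0.40, so a near profile there says little about shared cells.

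Other miRNAs known from white blood cells were divided. Of 11 on the list 7 were tested, 3 rose and 0 fell, where 4.38% of all 479 were called higher, with a median log2 fold change of 0.32 beside 0.00 over all 479. miR-155-5p, induced by inflammatory signals in macrophages and lymphocytes, had 3.42 ± 1.10 CPM in sham (SD, n = 6) and 25.4 ± 21.1 CPM in pMCAO (SD, n = 5). For miR-146a-5p, a feedback inhibitor of such signals, the values were 65.8 ± 21.7 and 137 ± 57.1 CPM. Their log2 fold changes were 2.79 and 1.05 (edgeR adjusted p = 0.00212 and 0.0434). The sham level of miR-155-5p rests on 3 to 9 counts in a library, near the floor of 3 counts. pMCAO replicate 2 held 53 of its 133 pMCAO counts, so the size of its change is uncertain. miR-21a-5p, the third, had a log2 fold change of 2.12. It ranked 1 by p-value among the 479, and the list was chosen with earlier results of these data known. The 3 of 7 is therefore a description and not a test of the list. In the paper, oxygen-glucose deprivation raised miR-21a-5p in cultured cortical neurons and neuroblastoma cells. No rise was detected in primary microglia or in an endothelial line, and the microglial and macrophage lines gave inconsistent data. Those were cell cultures deprived for hours, not tissue taken 3 days after surgery. miR-342-3p, known from lymphocytes, stood at 3114 ± 160 CPM in sham and 2415 ± 675 CPM in pMCAO, with a log2 fold change of -0.37 (adjusted p = 0.223 from edgeR), and was lowest in pMCAO replicate 5, as miR-150-5p was. miR-511-3p, whose hairpin lies in the macrophage gene Mrc1, was not tested, at 0.593 to 8.01 CPM in sham and 3.04 to 21.3 CPM in pMCAO.

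Markers of resident brain cells were read against the 7.10% of all miRNAs called and the 117 of 479 with an unadjusted edgeR p under 0.05. Of the 8 neuron miRNAs tested 0 were called by edgeR and 0 by DESeq2, and 5 had an unadjusted edgeR p under 0.05. Of these 5, miR-129-5p was higher in pMCAO, at 0.32 on the log2 scale, and the rest were lower. The 8 had a median log2 fold change of -0.18. They summed to between 333410 and 422938 CPM in sham and between 286438 and 336333 CPM in pMCAO. Among them miR-124-3p came nearest, with lower levels in every pMCAO library than in any sham library and a log2 fold change of -0.32 (edgeR adjusted p = 0.0523). Among 3 oligodendrocyte miRNAs 1 was called lower by edgeR, miR-338-3p at -0.54, and the median was -0.20. That call was close to the limit (edgeR adjusted p = 0.0453, rank 34 by p-value), and its groups overlapped. DESeq2 also called 1 of these 3. Of the 4 vessel miRNAs 0 were called by edgeR and 0 by DESeq2, with 0 at an unadjusted edgeR p under 0.05 and a median of -0.05.

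**Figure D4:**
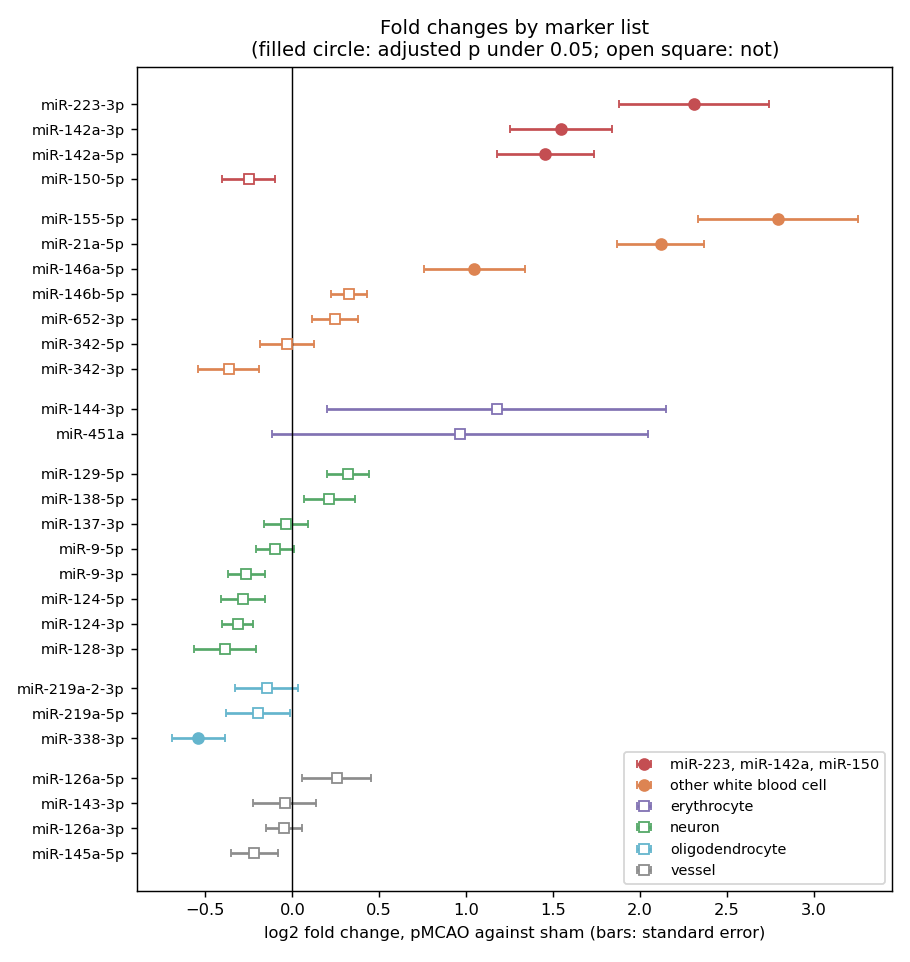
Log2 fold change of pMCAO against sham with its standard error for the 4 members tested and for the tested members of the white blood cell, erythrocyte, neuron, oligodendrocyte and vessel lists (filled circles, adjusted p under 0.05 from edgeR; open squares, not). miR-223-3p at 2.31 and the miR-142a arms at 1.55 and 1.46 stand with miR-155-5p, miR-21a-5p and miR-146a-5p. miR-150-5p at -0.25 lies within the ranges of the neuron, oligodendrocyte and other white blood cell miRNAs.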

How the data were processed

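Small RNA was sequenced on an Ion Torrent S5 from 11 libraries, 1 per mouse. The authors removed adapters and barcodes with Torrent Suite 5.0.2, checked reads with FastQC, kept those of 20 to 30 bp, mapped them to mm10 with Bowtie and used HTSeq for counting on miRBase 21. Each deposited table holds raw counts of 1907 mature miRNA names, and reads outside miRNAs are not in the totals. Assignment of reads matching several miRNAs is not given in the sources used here.

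Libraries were grouped by their titles. Group differences were fitted with edgeR 4.0.16 under R 4.3.3 (filterByExpr with a minimum count of 10 and total of 15, TMM, glmQLFit and glmQLFTest, Benjamini-Hochberg over all 479 miRNAs kept, threshold 0.05), and standard errors are the fold change over the square root of F. DESeq2 1.42.0, the tool of the study, was an alternative. Exact permutation tests over 462 arrangements used scipy 1.17.1 (2 times the smaller tail). The prior count was 2 for profile distances, of which the 3 nearest per miRNA are named. All 25 pairs of libraries within a group differed by more than sampling noise (the smallest chi-square over its degrees of freedom was 17.985). Scripts were tested on simulated data. Members, lists and tests were chosen with earlier results of these data known. Hairpin positions came from GENCODE vM21 (GRCm38). Same-numbered sham and pMCAO libraries had correlations of deviations between -0.0701 and 0.230, so the replicate numbers were not taken to pair the mice.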

Additional observations from a re-analysis of the deposited data

Results flagged for a closer look

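Among 36 sets of within-group values examined for 1 distant library, 2 had one, where chance gives about 1.8. Sham replicate 1 had a log2(CPM + 1) of 12.3 for miR-451a, while the remaining sham libraries had 5.45 to 7.99. Sham replicate 2 had a log2 total count of 21.1, while the remaining sham libraries had 20.4 to 20.7. The 5 members and their ratios had no such library.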

How the results depend on the processing

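miR-223-3p and both arms of miR-142a stayed higher and called under all 8 other fits and in all 11 that left out one library. Leaving out one library gave log2 fold changes of 1.82 to 2.52 for miR-223-3p, 1.34 to 1.76 for miR-142a-3p and 1.16 to 1.59 for miR-142a-5p, each lowest without pMCAO replicate 2. The other fits gave 2.10 to 2.53, 1.45 to 1.74 and 1.31 to 1.65. miR-150-5p stayed below 0 and uncalled in the same fits (-0.31 to -0.08). The 3 ratios between different hairpins and the miR-142a arm ratio also kept direction and call in every alternative run. With the replicate block, over replicates 1 to 5, log2 fold changes were 2.10, 1.45, 1.31 and, for miR-150-5p, -0.21, and none of these 4 calls changed. The replicate block was not fitted for miR-223-5p.

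miR-223-5p lost its call when libraries were thinned to 744877 counts (1.05, exact permutation p = 0.121) and with edgeR and no filter (3.11). Leaving out one library gave 1.00 to 1.75 (exact permutation p = 0.00952 to 0.0762). DESeq2 set its adjusted p aside as low in counts. The miR-223 arm ratio turned to 0.36 with 1 added and to 1.08 after thinning, and ran from -0.62 to 0.32 with one library left out, turning above 0 without sham replicate 2, pMCAO replicate 1 (0.32) or pMCAO replicate 2 (0.02).

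The count of all calls, 34, fell to 18 with at least 10 counts in every library, to 19 with the replicate block and to 19 after thinning, where 406, 472 and 425 miRNAs were tested. It was 44 with total counts only (43 higher and 1 lower, against 21 and 13) and 42 with DESeq2 (26 higher and 16 lower). It ran from 16 to 36 with one library left out, lowest without sham replicate 3, and was also under 23 without sham replicates 2, 4 or 6 or pMCAO replicates 2 or 5. Depth limits miR-223-5p, miR-150-3p and miR-142b, with at most 11 counts in a library, and the sham level of miR-155-5p, at 3 to 9 counts. Of the 5 pMCAO libraries, 1 correlated best with the sham library of its own number.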
